A study of Rattus norvegicus with 16 samples.

Results

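The genes described here make the major histocompatibility complex (MHC) molecules of the rat and the machinery that loads peptides onto them: every gene whose symbol begins with RT1- (RT1 is the rat MHC), with Psmb8, Psmb9, Psmb10, Psme1, Psme2, Tap1, Tap2, Tapbp, Tapbpl, B2m, Nlrc5, Ciita, Cd74, Erap1 and Ctss. Of the 14217 genes with a symbol of their own on the array, 32 met this rule: 18 RT1 genes and 14 of the 15 others (Tapbpl was not analysed here). A gene with several probe sets was represented by the one of highest mean log2 intensity over the 16 arrays. Groups with high values count in this mean, so the choice was not wholly free of differences between groups. The 32 genes were sorted by role into 5 of the immunoproteasome and PA28, 4 of peptide transport, trimming and loading, 14 of class I (12 RT1 chains, B2m and Nlrc5) and 9 of class II.

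RNA of primary pancreatic islets was measured on 1-colour Affymetrix arrays after culture in RPMI medium with 8 mM glucose and 10% serum. The islets came from male Wistar rats of 8 weeks and were all collected at 48 h. AdNkx6.1 islets (n = 5 arrays) had received an adenovirus that expresses the transcription factor Nkx6.1, and Adβgal islets (n = 6) a control adenovirus that expresses bacterial β-galactosidase. Both viruses were given at the same approximate particle concentration for 18 h, and untreated islets (n = 5) received no virus. The labels call the arrays biological replicates without saying whether they came from separate animals or pools, so p-values measure the spread between these arrays. The treatment description states 5 replicates per condition, while 6 Adβgal arrays were present and all were used.

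Class I molecules are found on nearly all nucleated cells and show peptides of cytosolic and viral proteins to CD8 T cells. Inducible subunits turn the standard proteasome into the immunoproteasome, the TAP transporter moves its peptides into the endoplasmic reticulum, and tapasin holds empty class I chains beside the transporter until peptide binds; interferons are the best known inducers of this set. Class II molecules present endocytosed antigens and are made mainly by macrophages, dendritic cells and B cells, which are a minority within an islet.

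Of the 31 members matched to the RefSeq gene table for assembly GRCr8, 22 lie on chromosome 20, where Tap2, Psmb8, Tap1 and Psmb9 are direct neighbours between class II genes. Promoter sequence (250 bases before to 50 after a start, RefSeq, GRCr8) was at hand for 27 members; positions are counted from the start that the promoter table uses, which can differ from the outermost end of the gene. The following 5 are shown because they belong to members with calls described further on and hold the motifs searched for: Psmb8 (chr20:4656982-4657281, minus strand), Psmb10 (chr19:50743243-50743542, minus strand), Tap1 (chr20:4668494-4668793, minus strand), RT1-S3 (chr20:2675278-2675577, plus strand) and RT1-CE10 (chr20:3384930-3385229, minus strand). Each runs 5′ to 3′ along its gene. Capitals mark, on either strand, the core of the interferon-stimulated response element (GAAA and GAAA with any 2 bases between them), the gamma-activated site TTCNNNGAA and the kappaB site, whose letters are the capitals of RT1-CE10.
Psmb8: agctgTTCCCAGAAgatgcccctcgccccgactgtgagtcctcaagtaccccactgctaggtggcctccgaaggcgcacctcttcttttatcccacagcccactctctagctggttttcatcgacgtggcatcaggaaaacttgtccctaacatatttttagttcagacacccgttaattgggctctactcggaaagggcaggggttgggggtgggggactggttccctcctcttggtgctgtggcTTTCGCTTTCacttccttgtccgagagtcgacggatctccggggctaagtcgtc
Psmb10: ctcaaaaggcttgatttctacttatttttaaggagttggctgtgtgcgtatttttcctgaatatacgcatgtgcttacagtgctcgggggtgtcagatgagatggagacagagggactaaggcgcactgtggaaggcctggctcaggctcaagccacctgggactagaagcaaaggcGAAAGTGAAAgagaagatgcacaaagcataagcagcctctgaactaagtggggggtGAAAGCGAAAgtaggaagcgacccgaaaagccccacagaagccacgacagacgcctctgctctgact
Tap1: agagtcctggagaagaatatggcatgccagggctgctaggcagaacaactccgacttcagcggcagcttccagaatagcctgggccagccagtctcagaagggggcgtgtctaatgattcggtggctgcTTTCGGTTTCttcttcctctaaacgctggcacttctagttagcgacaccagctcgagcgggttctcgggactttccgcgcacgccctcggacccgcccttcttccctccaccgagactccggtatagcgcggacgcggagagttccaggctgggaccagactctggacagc
RT1-S3: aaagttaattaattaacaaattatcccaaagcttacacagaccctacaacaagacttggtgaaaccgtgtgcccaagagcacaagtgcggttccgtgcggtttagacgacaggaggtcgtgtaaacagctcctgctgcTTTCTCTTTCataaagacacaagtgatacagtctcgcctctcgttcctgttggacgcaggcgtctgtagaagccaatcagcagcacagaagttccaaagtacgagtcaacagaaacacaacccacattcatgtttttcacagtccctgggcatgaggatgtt
RT1-CE10: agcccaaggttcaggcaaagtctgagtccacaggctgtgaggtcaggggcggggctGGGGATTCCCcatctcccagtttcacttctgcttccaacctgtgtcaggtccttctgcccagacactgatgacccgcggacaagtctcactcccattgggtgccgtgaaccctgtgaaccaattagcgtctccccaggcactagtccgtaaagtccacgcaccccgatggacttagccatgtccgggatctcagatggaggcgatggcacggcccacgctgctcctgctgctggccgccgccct

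The response element core occurred in 10 of the 27 member promoters (Ctss, B2m, Psme2, Psmb10, RT1-N3, RT1-S3, Tap2, Psmb8, Tap1 and Tapbp), against 3.92% of the 33469 promoters in the table. The match began at -4 from that start in Psmb8 and at -121 in Tap1. Psmb10 held 2 matches, at -73 and -17, and Tapbp held 2 that overlap each other. The kappaB sequence stood in RT1-CE10, RT1-CE16 and RT1-A3, 3 of 27, against 0.114% of all promoters, and TTCNNNGAA in RT1-M3-1 and Psmb8, 2 of 27 against 8.87%. The shorter CCAAT, the core of the Y box of MHC promoters, was present in 19 of 27, against 37.5% of all. Near-identical RT1 copies mean that the matches are not all independent, and a match describes letters and not a bound site. Only exact matches were counted, so a window without one may still hold a variant of the element.

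All 5 immunoproteasome and PA28 genes, both transporter genes and most class I genes rose with AdNkx6.1 against Adβgal, and 8 of 9 class II genes did not pass the test. Against Adβgal, 17 of the 32 members were higher and 0 lower at a limma adjusted p of 0.05, where 16.6% of all 14217 genes were higher and 8.48% lower. At an unadjusted p under 0.05 no member was lower either. The median log2 change of the members was 0.44, against 0.02 over all genes. By role, 5 of 5 immunoproteasome and PA28 genes, 2 of 4 transport and loading genes, 9 of 14 class I genes and 1 of 9 class II genes were higher, with medians of 0.76, 0.52, 0.75 and -0.20. In 13 members the viral groups did not overlap and AdNkx6.1 was the higher (of all genes 10.4% did so and 3.78% with AdNkx6.1 the lower), and 5 were called at least 2-fold higher (2.79% of all genes): RT1-A, Psmb8, Psmb9, RT1-DMa and RT1-CE5.

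The control virus alone came with a smaller set of calls. Between Adβgal and untreated islets 6 of 32 members were higher and 0 lower (RT1-T24-3, RT1-S3, Psmb8, Tap1, Psmb9 and RT1-M3-1), where 2.84% of all genes were higher and 4.17% lower. At an unadjusted p under 0.05 RT1-CE16 was lower (-0.41 ± 0.16, unadjusted p = 0.02, adjusted p = 0.12). The members' median was 0.21, against -0.04 over all genes. In 4 members (RT1-S3, RT1-T24-3, Psmb9 and Tap2, the last not called) the groups did not overlap and Adβgal was the higher (of all genes 2.05%, and 4.83% with Adβgal the lower), and 2 were called at least 2-fold higher (0.499%).

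With AdNkx6.1 against untreated islets 20 of 32 members were higher and 0 lower, where 16.9% of all genes were higher and 13.8% lower. In 22 members the groups did not overlap and AdNkx6.1 was the higher (of all genes 17.4%, and 14.7% with AdNkx6.1 the lower), and 12 were called at least 2-fold higher (3.66%). The median was 0.62, against -0.01 over all genes, and by role 5 of 5, 3 of 4, 11 of 14 and 1 of 9 genes were higher. The 3 comparisons share their arrays, so their calls are not independent of one another. In the reported fit Psmb8, Psmb9, Tap1 and RT1-S3 were called higher in each of the 3 comparisons. A further 13 members were called with AdNkx6.1 against both other groups, RT1-M3-1 and RT1-T24-3 in both viral groups against untreated, Tapbp with AdNkx6.1 against untreated alone, and 12 in no comparison.

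**Figure D1:**
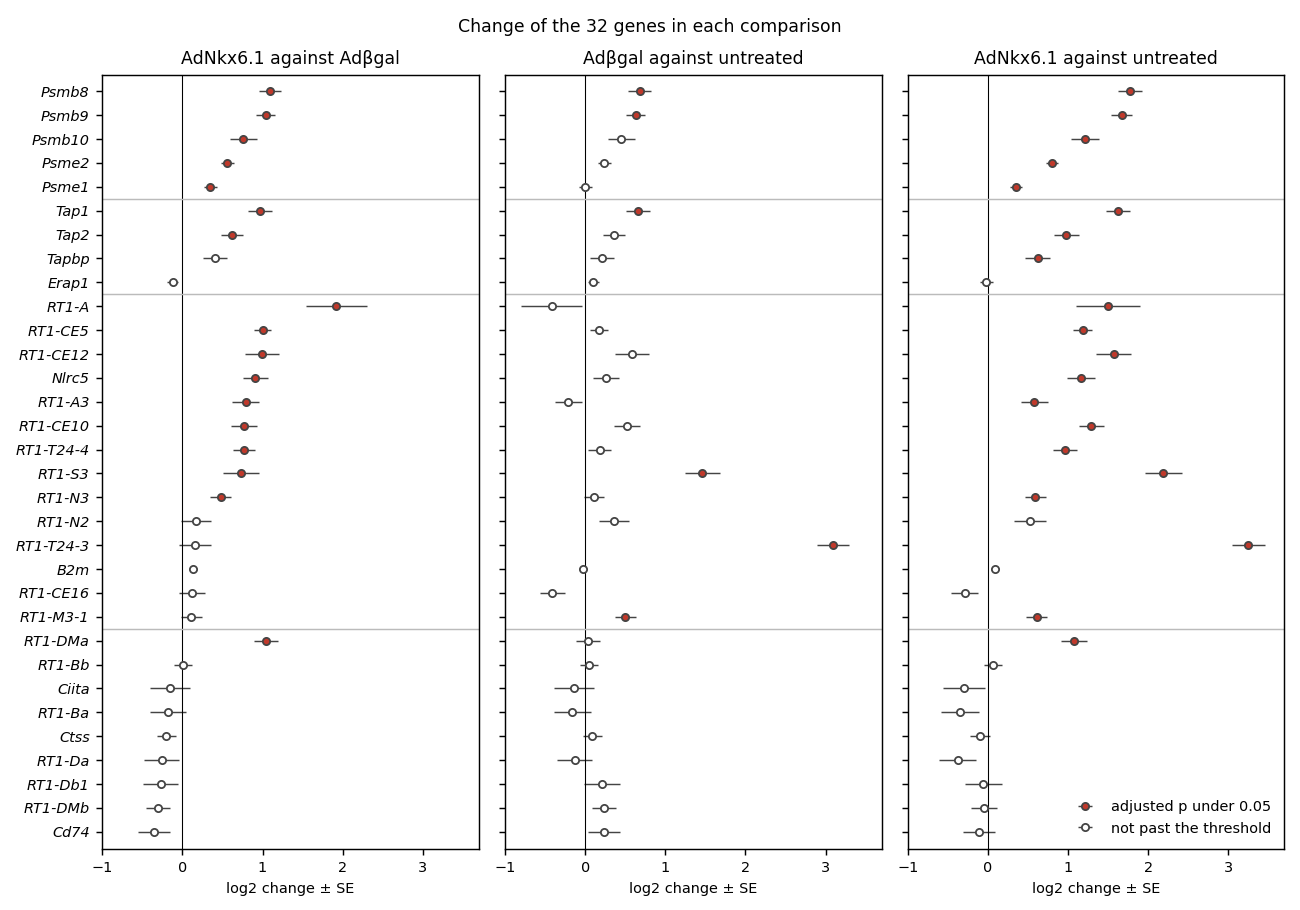
Log2 change (x axis, bars are the standard error) of the 32 genes in the 3 comparisons, with filled points at an adjusted p under 0.05 and grey lines between the immunoproteasome, transport, class I and class II groups. Filled points are 17, 6 and 20 in number from left to right, all right of 0, and RT1-DMa is the single filled point among the 9 class II genes.

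Among the inducible proteasome subunits, Psmb8, which takes the place of Psmb5, had log2 intensities of 12.94, 12.84, 13.05, 13.32 and 13.12 with AdNkx6.1. The 6 Adβgal arrays had a lowest value of 11.41, a median of 11.93 and a highest of 12.47, and the untreated arrays had 11.42, 11.20, 11.23, 11.21 and 11.38. The AdNkx6.1 arrays were above all others, and 1 Adβgal array lay within the untreated range. The change was 1.09 ± 0.14 (SE) against Adβgal, 2.13-fold with limma adjusted p = 3.8e-05, and 0.68 ± 0.14 between Adβgal and untreated, 1.6-fold with adjusted p = 0.011.

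Psmb9, which replaces Psmb6, stood at 12.36, 12.27, 12.38, 12.78 and 12.66 with AdNkx6.1. With Adβgal its lowest, median and highest values were 11.20, 11.44 and 11.89, and in untreated islets it had 10.73, 10.69, 11.02, 10.76 and 10.88. The 3 groups formed 3 separate steps with no overlap. It was 2.05-fold higher with AdNkx6.1 than with Adβgal (1.04 ± 0.12, adjusted p = 1.1e-05) and 1.55-fold higher with Adβgal than untreated (0.63 ± 0.12, adjusted p = 0.0063).

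Psmb10, the third inducible subunit, which replaces Psmb7, had 12.08, 11.91, 12.09, 12.40 and 12.29 with AdNkx6.1, against a lowest of 10.83, a median of 11.30 and a highest of 11.96 with Adβgal and 11.09, 10.84, 10.84, 10.92 and 11.04 in untreated islets. The Adβgal arrays spread from the untreated range up to the lowest AdNkx6.1 array. Its change was 0.76 ± 0.17 against Adβgal (1.69-fold, adjusted p = 0.0029) and 0.45 ± 0.17 between Adβgal and untreated (adjusted p = 0.1).

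The PA28 activator, a ring that caps the proteasome and eases the exit of peptides, is built from Psme1 and Psme2. Psme2 averaged 13.64 ± 0.10 with AdNkx6.1, 13.08 ± 0.13 with Adβgal and 12.84 ± 0.09 in untreated islets (SD, n = 5, 6 and 5), and its change against Adβgal was 0.56 ± 0.08 (1.48-fold, adjusted p = 4.6e-05). Psme1 averaged 13.37 ± 0.06, 13.02 ± 0.19 and 13.02 ± 0.05 in the same groups, a change of 0.35 ± 0.08 against Adβgal (1.27-fold, adjusted p = 0.004) and 0.00 ± 0.08 between Adβgal and untreated. Without Adβgal replicates 4, 5 and 6 it was 0.23 against Adβgal (adjusted p = 0.009). A dim other probe set of Psme1 changed by 0.15 ± 0.11 against Adβgal, and with the mean of both the call of Psme1 against untreated ended (0.15, adjusted p = 0.22).

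The other proteasome lists had smaller median changes than the 0.76 of the immunoproteasome and PA28 genes, a difference that was not tested, and single members such as Psmd8 changed more than the PA28 genes. Of 13 measured constitutive core subunits 6 were higher with AdNkx6.1 than with Adβgal and 0 lower, at a median of 0.20. Of 24 genes of caps, assembly factors and other activators 11 were higher and 0 lower, at a median of 0.19. Both lists had a larger share higher than all genes, of which 16.6% were higher and 8.48% lower. Between Adβgal and untreated 0 of either list passed in limma, with 1 core gene and 0 of the other list at an unadjusted p under 0.05. Psmb5, the constitutive counterpart of Psmb8, changed by 0.29 ± 0.08 with AdNkx6.1 (adjusted p = 0.011) and Psmb7, that of Psmb10, by 0.30 ± 0.11 (adjusted p = 0.062); Psmb6 was not analysed here. The cap subunit Psmd8 rose 1.56-fold (0.64 ± 0.07, adjusted p = 7.8e-06), and the cap ATPase Psmc4 rose 1.38-fold (0.47 ± 0.08, adjusted p = 0.00026).

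**Figure D2:**
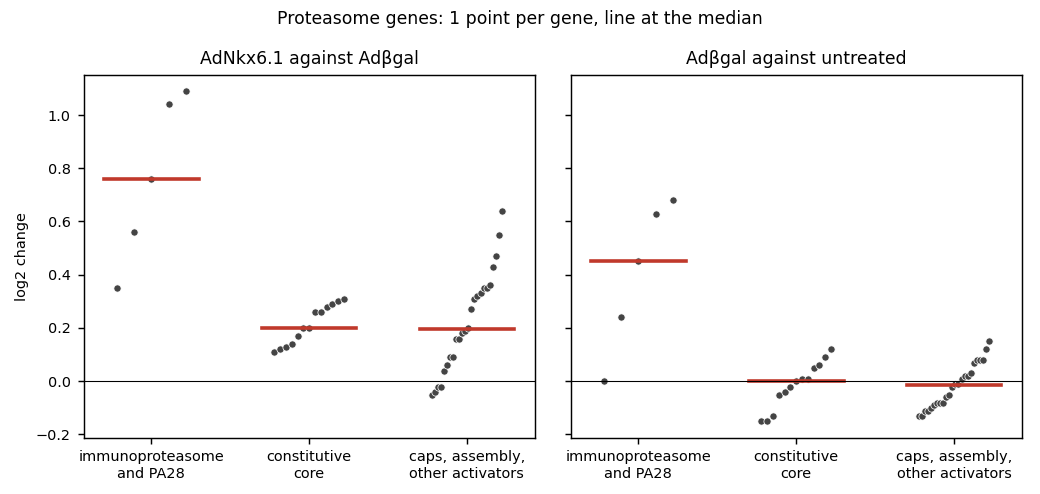
Log2 change (y axis) of proteasome genes in 3 lists, 1 point per gene with a red line at the median, for AdNkx6.1 against Adβgal (left) and Adβgal against untreated (right). The medians on the left are 0.76 for the immunoproteasome and PA28, 0.20 for the constitutive core and 0.19 for caps, assembly factors and other activators.

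Tap1, which with Tap2 forms the peptide transporter, had log2 intensities of 11.19, 11.06, 10.90, 11.56 and 11.48 with AdNkx6.1. With Adβgal the lowest was 9.72, the median 10.39 and the highest 10.55, and untreated arrays had 9.74, 9.58, 9.64, 9.66 and 9.46. All AdNkx6.1 arrays lay above all others, and 1 Adβgal array reached down into the untreated range. Tap1 was 1.95-fold higher than with Adβgal (0.97 ± 0.15, adjusted p = 0.00015). Between Adβgal and untreated it was 1.58-fold higher (0.66 ± 0.15, adjusted p = 0.015), a call that ended with the mean of both its probe sets (0.32, adjusted p = 0.13), of which the other was dim at 3.65, 3.60 and 3.61 in AdNkx6.1, Adβgal and untreated islets. With that mean the change against Adβgal was 0.50 (adjusted p = 0.0082).

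Tap2 had 10.58, 10.29, 9.80, 10.28 and 10.42 with AdNkx6.1, against a lowest of 9.41, a median of 9.57 and a highest of 10.25 with Adβgal, and between 9.25 and 9.33 in untreated islets. Adβgal replicate 5 held the highest value and AdNkx6.1 replicate 3 the lowest, and only these 2 arrays made the viral groups overlap. The change against Adβgal was 0.62 ± 0.14 (1.54-fold, adjusted p = 0.0046) and that of Adβgal against untreated 0.36 ± 0.14 (adjusted p = 0.13), although no Adβgal array overlapped the untreated ones.

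Tapbp, tapasin, averaged 10.25 ± 0.21 with AdNkx6.1, 9.84 ± 0.37 with Adβgal and 9.63 ± 0.11 untreated (SD, n = 5, 6 and 5). It passed against untreated (0.62 ± 0.16, 1.54-fold, adjusted p = 0.007) and missed the threshold against Adβgal (0.41 ± 0.15, adjusted p = 0.057), which it crossed without AdNkx6.1 replicate 3 or Adβgal replicate 1, 2 or 5 (adjusted p between 0.016 and 0.046). Erap1, the aminopeptidase that trims peptides in the endoplasmic reticulum, averaged 12.22, 12.34 and 12.24 in AdNkx6.1, Adβgal and untreated islets, a change of -0.12 ± 0.07 against Adβgal with a 95% interval of -0.28 to 0.03. A dim probe set of Erap1 was lower with AdNkx6.1 than with Adβgal (-1.01 ± 0.23, adjusted p = 0.0065 over all probe sets), and the mean of the gene's probe sets was called lower (-0.41, adjusted p = 0.0014). Of 13 listed genes of peptide loading and folding in the endoplasmic reticulum, 0 passed in any comparison in limma, with 1, 2 and 1 at an unadjusted p under 0.05 in AdNkx6.1 against Adβgal, Adβgal against untreated and AdNkx6.1 against untreated. The chaperones Calr and Pdia3 changed by 0.00 ± 0.06 and 0.03 ± 0.06 against Adβgal.

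**Figure D3:**
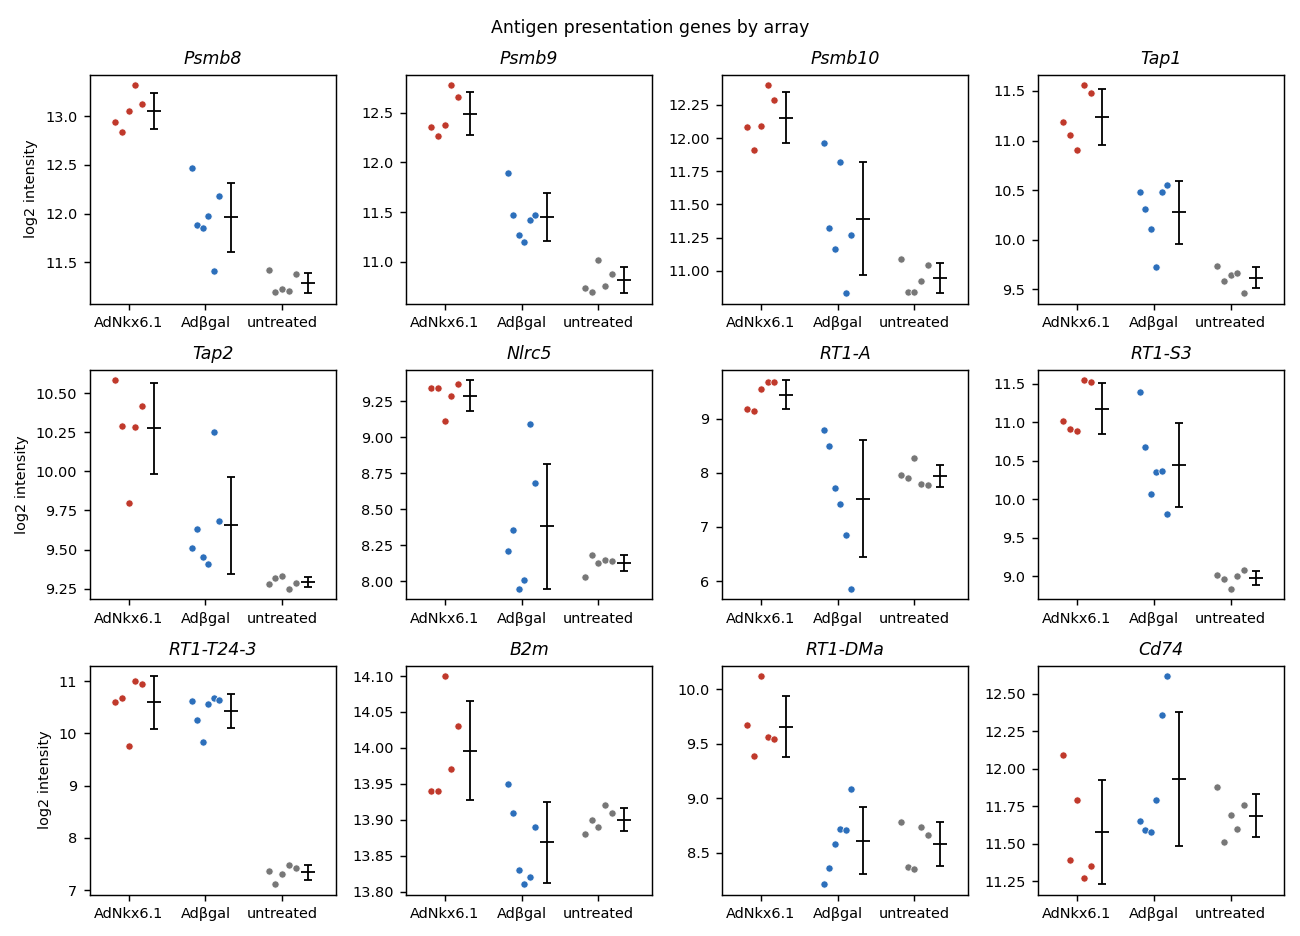
Log2 intensity (y axis, own scale per panel) of 12 of the genes on each array, with AdNkx6.1 left, Adβgal in the middle and untreated right; black bars give the mean and SD. All AdNkx6.1 arrays lie above all Adβgal arrays for Psmb8, Psmb9, Tap1, Nlrc5, RT1-A and RT1-DMa, and RT1-T24-3 separates both viral groups from untreated.

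Among the class I genes, Nlrc5, the transactivator of class I promoters, had 9.34, 9.34, 9.11, 9.29 and 9.37 with AdNkx6.1, against a lowest of 7.95, a median of 8.29 and a highest of 9.09 with Adβgal and 8.03, 8.18, 8.13, 8.15 and 8.14 in untreated islets. The AdNkx6.1 arrays lay close together above all others, whereas the Adβgal arrays reached on both sides of the untreated values. It was 1.87-fold higher with AdNkx6.1 than with Adβgal (0.91 ± 0.16, adjusted p = 0.00051), while Adβgal against untreated gave 0.26 ± 0.16 (adjusted p = 0.33).

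RT1-A, the classical class I gene of the rat, had 9.17, 9.14, 9.54, 9.67 and 9.67 with AdNkx6.1. With Adβgal it fell with the replicate number, at 8.78, 8.49, 7.72, 7.42, 6.86 and 5.86 (median 7.57). Untreated arrays had 7.96, 7.90, 8.27, 7.80 and 7.78. No array of another group reached the AdNkx6.1 values, and the Adβgal spread was wide (SD 1.08, against 0.26 with AdNkx6.1 and 0.19 untreated). The change was 1.92 ± 0.38 against Adβgal (3.77-fold, adjusted p = 0.0015) and 1.50 ± 0.40 against untreated (2.82-fold, adjusted p = 0.0093). Adβgal against untreated gave -0.42 ± 0.38 (limma adjusted p = 0.52). Without Adβgal replicates 4, 5 and 6 the change of RT1-A against Adβgal was 1.10 (adjusted p = 0.0015). RT1 is highly polymorphic and Wistar is an outbred stock, so probes may fit the alleles of different animals unequally; the part of haplotypes in any RT1 value was not tested.

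RT1-CE12 averaged 11.35 ± 0.23 with AdNkx6.1, 10.36 ± 0.56 with Adβgal and 9.78 ± 0.15 untreated, and RT1-CE10 averaged 10.85 ± 0.13, 10.08 ± 0.35 and 9.56 ± 0.26 in the same groups (SD, n = 5, 6 and 5). Both were higher against Adβgal, by 0.99 ± 0.21 (1.98-fold, adjusted p = 0.0024) and 0.77 ± 0.16 (1.7-fold, adjusted p = 0.0016). The viral groups did not overlap, though for RT1-CE12 they nearly touched. Its lowest AdNkx6.1 array had 11.13 and its highest Adβgal array 11.12, against 10.63 and 10.48 for RT1-CE10. Adβgal against untreated did not pass for either, at 0.58 ± 0.21 (adjusted p = 0.098) and 0.52 ± 0.16 (adjusted p = 0.054). RT1-T24-4, RT1-A3 and RT1-N3 were higher with AdNkx6.1 by 0.77 ± 0.14, 0.79 ± 0.17 and 0.48 ± 0.13 (adjusted p = 0.0007, 0.0021 and 0.01). Without Adβgal replicates 4, 5 and 6 the change of RT1-A3 was 0.49 (adjusted p = 0.016). The other probe set of RT1-A3 changed by 0.38 ± 0.10 against Adβgal and 0.19 ± 0.10 against untreated (limma adjusted p = 0.013 and 0.22 over all probe sets). In the reported fit RT1-CE16 and RT1-N2 passed in no comparison. RT1-CE16 changed by 0.12 ± 0.16 and RT1-N2 by 0.17 ± 0.19 against Adβgal. Against untreated RT1-N2 changed by 0.53 ± 0.20 (adjusted p = 0.057) with no overlap of the groups, and it passed under 5 alternatives (adjusted p between 0.012 and 0.049).

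Of the 18 RT1 genes, 6 are represented by probe sets that the array maker marks as able to bind several transcripts, and RT1 copies are nearly identical, so a value may sum several of them. RT1-CE5 shows how far probe sets of 1 symbol can differ. The probe set that represents it had 11.79, 11.69, 11.48, 11.72 and 11.80 with AdNkx6.1, against a lowest of 10.38, a median of 10.71 and a highest of 11.18 with Adβgal and 10.41 to 10.57 untreated, and was 2-fold higher with AdNkx6.1 than with Adβgal (SE 0.11 on the log2 scale, adjusted p = 9.6e-06). The one with the largest change had 11.22, 11.20, 11.41, 11.64 and 11.58 with AdNkx6.1, against 5.74 to 7.71 with Adβgal and 5.57 to 6.19 untreated.

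The changes of the 4 other RT1-CE5 probe sets against Adβgal were 4.50 ± 0.26, 4.31 ± 0.28, 2.60 ± 0.25 and 1.68 ± 0.15, with adjusted p-values over all 31042 probe sets between 1.3e-08 and 2.2e-06. All 5 separated every AdNkx6.1 array from every other array, while the size of the change ranged from 2 to 22.6-fold. In the one with the largest change the Adβgal arrays were also higher than untreated (1.07 ± 0.26, adjusted p = 0.022). A probe set assigned to RT1-A, RT1-CE5 and 3 other class I symbols together averaged 10.35 with AdNkx6.1, 9.13 with Adβgal and 8.10 untreated. Its changes were 1.22 ± 0.18 against Adβgal and 1.03 ± 0.18 for Adβgal against untreated. Another, assigned to RT1-A3 and RT1-A2, averaged 10.95, 9.78 and 10.62 in the same groups. With AdNkx6.1 it changed by 1.18 ± 0.44 against Adβgal and 0.34 ± 0.46 against untreated (limma adjusted p = 0.071 and 0.68). Apart from one of RT1-T24-3 and RT1-T24-4, the remaining RT1 probe sets with several symbols passed in no comparison.

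**Figure D4:**
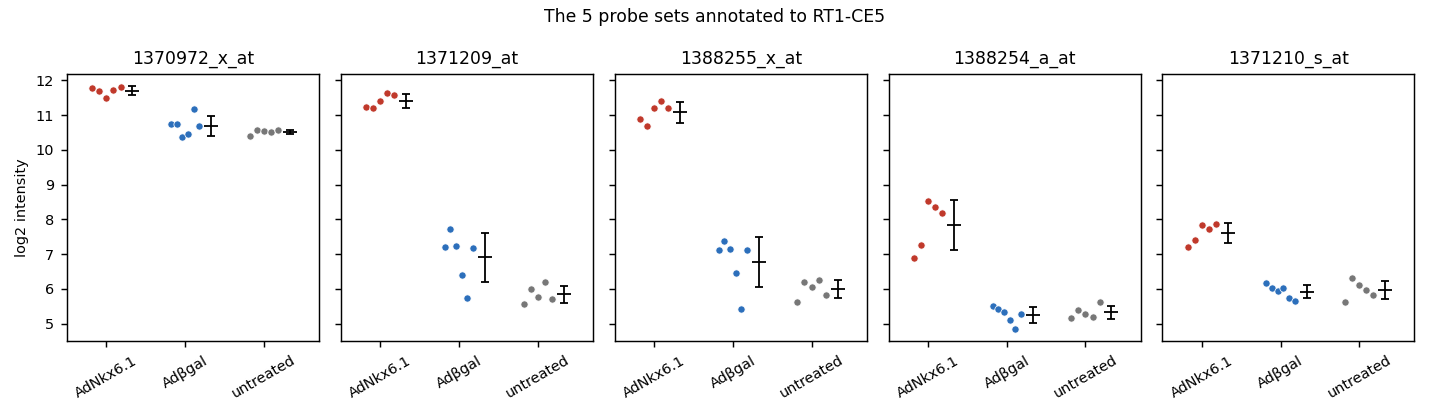
Log2 intensity (y axis) of the 5 probe sets assigned to RT1-CE5 on each array of the 3 groups, with the mean and SD as black bars. AdNkx6.1 lies highest in every panel, 2-fold over Adβgal in the probe set used (left) and by a log2 change of 4.50, 4.31, 2.60 and 1.68 in the others.

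RT1-T24-3 had the largest change of the members with the control virus and differed little between the viruses. It had 10.60, 10.67, 9.75, 11.01 and 10.94 with AdNkx6.1, a lowest of 9.83, a median of 10.59 and a highest of 10.67 with Adβgal, and 7.37, 7.11, 7.31, 7.48 and 7.42 in untreated islets. The viral groups overlapped and both lay far above the untreated arrays. Adβgal against untreated gave 3.09 ± 0.20 (8.52-fold, adjusted p = 3.8e-07), and AdNkx6.1 against Adβgal gave 0.16 ± 0.20 (adjusted p = 0.6, 95% interval -0.26 to 0.59). A probe set assigned jointly to RT1-T24-3 and RT1-T24-4 averaged 7.17 with AdNkx6.1, 6.94 with Adβgal and 5.63 untreated (Adβgal against untreated 1.31 ± 0.34, adjusted p = 0.027 over all probe sets).

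RT1-S3, a non-classical class I gene, had 11.01, 10.91, 10.89, 11.54 and 11.52 with AdNkx6.1. With Adβgal the lowest, median and highest were 9.81, 10.36 and 11.39, and untreated arrays had 9.02, 8.97, 8.84, 9.01 and 9.08. Both viral groups were clear of the untreated arrays, and 1 Adβgal array lay among the AdNkx6.1 arrays. RT1-S3 was 2.75-fold higher with Adβgal than untreated (1.46 ± 0.22, adjusted p = 0.0016) and 1.66-fold higher with AdNkx6.1 than with Adβgal (0.73 ± 0.22, adjusted p = 0.022). The second call ended without AdNkx6.1 replicate 4 or 5 (adjusted p = 0.068 and 0.067) and without Adβgal replicates 4, 5 and 6 together (0.46, adjusted p = 0.18). All 4 of its probe sets gave like values, 0.72 to 0.81 against Adβgal and 1.21 to 1.73 for Adβgal against untreated.

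RT1-M3-1, whose mouse counterpart presents formylated peptides, averaged 10.07 ± 0.16 with AdNkx6.1, 9.96 ± 0.24 with Adβgal and 9.46 ± 0.24 untreated (SD, n = 5, 6 and 5). Adβgal was higher than untreated by 0.50 ± 0.13 (1.41-fold, adjusted p = 0.028), with overlapping groups. The call ended when untreated replicate 1, 2, 4 or 5 was left out (adjusted p between 0.064 and 0.073) and without Adβgal replicates 4, 5 and 6 (0.44, adjusted p = 0.076). B2m, the light chain shared by all class I molecules, had 13.94, 13.94, 14.10, 13.97 and 14.03 with AdNkx6.1, against a lowest of 13.81, a median of 13.86 and a highest of 13.95 with Adβgal and 13.88 to 13.92 untreated. These values lay near the top of the intensity scale and within 0.29 of each other. The change against Adβgal was 0.13 ± 0.05 (adjusted p = 0.092), while the other probe set of B2m was higher by 0.31 ± 0.09 (adjusted p = 0.025 over all probe sets).

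Most class II genes passed in no comparison, and their counts of calls lay near the shares of all genes. Those shares were 16.6% higher and 8.48% lower for AdNkx6.1 against Adβgal. They were 2.84% and 4.17% for Adβgal against untreated, and 16.9% and 13.8% for AdNkx6.1 against untreated. Between AdNkx6.1 and Adβgal 1 of 9 was higher, between Adβgal and untreated 0 of 9 passed in limma (0 also at an unadjusted p under 0.05), and between AdNkx6.1 and untreated 1 of 9 was higher. The exception in both was RT1-DMa, the alpha chain of the DM molecule that exchanges peptides on class II: it had 9.67, 9.39, 10.12, 9.56 and 9.54 with AdNkx6.1, against a lowest of 8.21, a median of 8.65 and a highest of 9.08 with Adβgal and 8.78, 8.37, 8.35, 8.74 and 8.66 untreated. Every AdNkx6.1 array lay above every other array, and the other groups overlapped. The change was 1.04 ± 0.15 against Adβgal (2.06-fold, adjusted p = 0.00011) and 1.07 ± 0.16 against untreated (2.1-fold, adjusted p = 0.0001).

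RT1-DMb, the beta chain that pairs with it, averaged 9.04 ± 0.31 with AdNkx6.1, 9.33 ± 0.30 with Adβgal and 9.09 ± 0.12 untreated, and its change against Adβgal was -0.30 ± 0.15 (adjusted p = 0.17, 95% interval -0.62 to 0.02). Without AdNkx6.1 replicate 3 it was called lower (-0.41, adjusted p = 0.045). The difference between the changes of the paired chains was not tested. Cd74, the invariant chain that guides class II molecules, had 12.09, 11.39, 11.79, 11.27 and 11.35 with AdNkx6.1, against a lowest of 11.58, a median of 11.72 and a highest of 12.62 with Adβgal and 11.51 to 11.88 untreated. The groups overlapped, and the change against Adβgal was -0.35 ± 0.20 (adjusted p = 0.21, 95% interval -0.77 to 0.06).

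The presenting chains RT1-Ba, RT1-Bb, RT1-Da and RT1-Db1 changed by -0.18 ± 0.23, 0.01 ± 0.11, -0.26 ± 0.22 and -0.27 ± 0.22 against Adβgal, none past the threshold. Ctss, the protease that degrades the invariant chain, changed by -0.20 ± 0.12 and Ciita, the class II transactivator, by -0.16 ± 0.25, with 95% intervals of -0.45 to 0.05 and -0.70 to 0.37. Ciita, RT1-N2 and RT1-A3 had mean log2 intensities under the 25th percentile of all genes (6.99), and no detection call was used. From a list of 13 measured genes of class II and endolysosomal processing outside the members, 3 were higher with AdNkx6.1 than with Adβgal and 0 lower, near the 16.6% of all genes that were higher. Among them Ifi30, the thiol reductase of the endocytic path, rose 1.63-fold (0.71 ± 0.12, adjusted p = 0.00032), and the cathepsins Ctsd and Ctsz rose by 0.32 ± 0.07 and 0.30 ± 0.10 (adjusted p = 0.0038 and 0.038).

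The markers of cells that carry class II varied from array to array. The mean log2 intensity of 29 leukocyte and antigen-presenting cell markers was 7.45, 7.14, 7.50, 7.08 and 7.03 with AdNkx6.1, 7.16, 7.14, 7.18, 7.67, 7.84 and 8.19 with Adβgal, and 7.22 to 7.43 untreated. Class II genes averaged 9.86, 9.42, 9.83, 9.24 and 9.16 with AdNkx6.1, 9.15, 9.40, 9.54, 9.46, 9.81 and 10.09 with Adβgal, and 9.37 to 9.68 untreated. In both sets AdNkx6.1 replicates 1 and 3 and Adβgal replicates 5 and 6 were the highest of their group. The summed intensity of the markers ran from 11083 to 17000 with AdNkx6.1, from 13016 to 22610 with Adβgal and from 13505 to 16209 untreated.

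Of these 29 markers Lck, a T cell kinase, was higher and Adgre1, a macrophage receptor, lower with AdNkx6.1 than with Adβgal, at a median of -0.23 for the list. Of all genes 16.6% were higher and 8.48% lower. The pan-leukocyte gene Ptprc averaged 7.53 ± 0.65 with AdNkx6.1, 8.03 ± 0.92 with Adβgal and 7.62 ± 0.15 untreated. Its lowest arrays had 6.90, 6.80 and 7.48 in these groups, and without a detection call its presence in each group was not tested. In tissue arrays fewer cells of a type and less RNA per cell cannot be told apart, and the part of these cells in the class II values was not tested. Without Adβgal replicates 4, 5 and 6, an alternative chosen after the values were seen, 1 of 9 class II genes was still called higher against Adβgal and the class II median was 0.07, against -0.20 with all arrays. The class I, immunoproteasome and transport counts against Adβgal were then 8 of 14, 5 of 5 and 2 of 4.

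**Figure D5:**
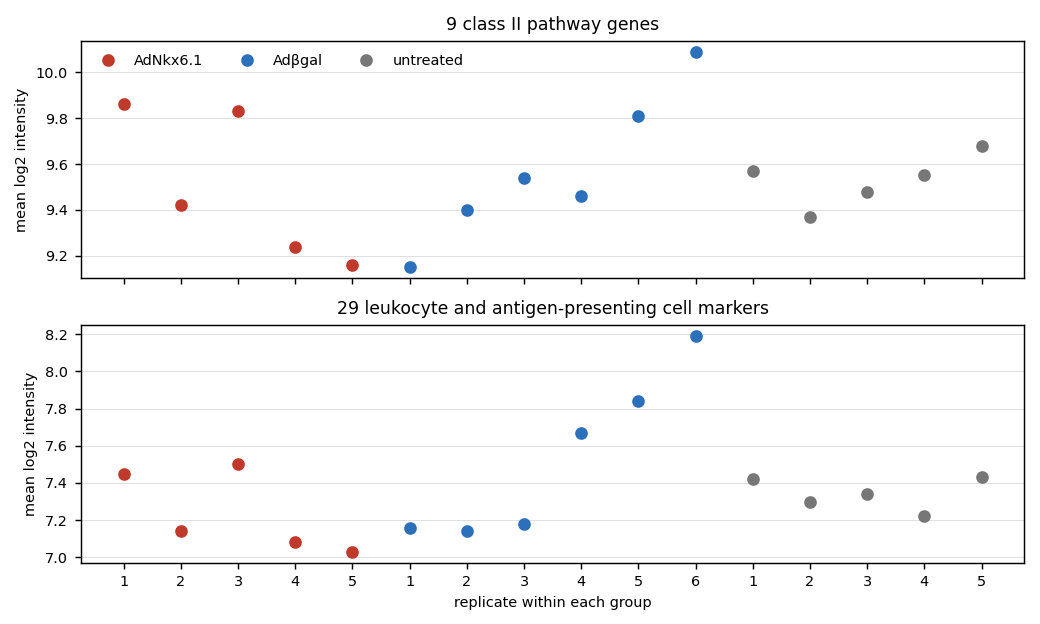
Mean log2 intensity (y axis) of the 9 class II pathway genes (top) and of 29 leukocyte and antigen-presenting cell markers (bottom) on each of the 16 arrays (x axis, replicate within group). Adβgal replicate 6 is highest in both, at 10.09 and 8.19.

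Of 25 measured regulators of these genes outside the members, 6 were higher and 1 lower with AdNkx6.1 than with Adβgal, 2 higher and 0 lower with Adβgal than untreated, and 7 higher and 2 lower with AdNkx6.1 than untreated. Between the viruses 16.6% of all genes were higher and 8.48% lower, so the regulators' counts in that comparison lay near the share of all genes. For Adβgal against untreated these shares were 2.84% and 4.17%, and for AdNkx6.1 against untreated 16.9% and 13.8%. Whether the regulators' counts differ from the shares of all genes was not tested in any comparison. Stat2, a transcription factor of type I interferon signalling, averaged 11.02 with AdNkx6.1, 10.34 with Adβgal and 9.61 untreated; it was higher by 0.67 ± 0.13 between the viruses (1.6-fold, adjusted p = 0.0013) and by 0.73 ± 0.13 for Adβgal against untreated (1.66-fold, adjusted p = 0.0045). Its partner Irf9 was higher with Adβgal than untreated (0.52 ± 0.12, adjusted p = 0.018) and changed by 0.12 ± 0.12 between the viruses (adjusted p = 0.51). The receptor chain Ifngr2, the kinase Tyk2 and the feedback inhibitor Socs1 were higher with AdNkx6.1 than with Adβgal by 0.51 ± 0.08, 0.46 ± 0.09 and 0.50 ± 0.09 (adjusted p = 0.00035, 0.00075 and 0.0004).

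Some regulators were named after their values were seen. Irf1, an activator of class I genes, averaged 10.79 ± 0.19 with AdNkx6.1, 10.42 ± 0.19 with Adβgal and 10.51 ± 0.18 untreated, and was higher between the viruses by 0.37 ± 0.11 (adjusted p = 0.022). Nfkb1, a subunit of NF-κB, was the 1 lower regulator (-0.40 ± 0.13, adjusted p = 0.034). The ligand gene Ifng lay low at 3.56 with AdNkx6.1, 3.51 with Adβgal and 3.66 untreated, and Ifnb1 between 4.90 and 5.05 in the means of all groups, with 0 of these changes past the threshold in limma (lowest adjusted p = 0.28).

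Calls were also counted by motif. Of the 10 members whose promoter window holds the response element core, 7 were higher with AdNkx6.1 than with Adβgal, 3 with Adβgal than untreated and 8 with AdNkx6.1 than untreated. Of the 17 other members with a promoter, 8, 3 and 10 were higher in the same comparisons. These 17 lack an exact match to the pattern, and variants of the element were not searched for. Psmb9, counted among them, lies 408 bases from Tap1, and the match of Tap1 stands between these genes, outside the Psmb9 window. RT1-T24-3, with the largest change under Adβgal, held none of the 3 motifs marked in capitals. Among the 3 members with the kappaB sequence, RT1-CE10 and RT1-A3 were higher with AdNkx6.1 than with Adβgal while RT1-CE16 was not past the threshold. In the same 3 comparisons 1, 2 and 2 of the 2 members with TTCNNNGAA were higher. For CCAAT the counts were 8, 5 and 10 of the 19 with it and 7, 1 and 8 of the 8 without it. No difference in calls by motif was tested.

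Over the whole series the arrays had median intensities of 264.8 to 296.2, and the SD within a group was widest with Adβgal for 24 of 32 members, as for 73.9% of all genes. The tissue label was checked on its markers: Ins1 averaged 14.69, 14.72 and 14.75 in AdNkx6.1, Adβgal and untreated islets. Of 14 islet endocrine markers 10 were lower with AdNkx6.1 than untreated, where 13.8% of all genes were lower. The 22 acinar markers had medians of -0.92 against Adβgal and 0.96 for Adβgal against untreated, and were highest on Adβgal replicates 4, 5 and 6. Few passed in limma: 0 were higher and 3 lower against Adβgal, where 16.6% of all genes were higher and 8.48% lower. For Adβgal against untreated 0 were higher and 1 lower, where 2.84% of all genes were higher and 4.17% lower. At an unadjusted p under 0.05 there were 8 and 11 in these comparisons. The probe set of Nkx6-1 was 1.38-fold lower under AdNkx6.1 than under Adβgal (-0.46 ± 0.10, adjusted p = 0.0023); whether its probe set lies within the delivered sequence is not given in the sources used here, so it does not check the labels.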

How the data were processed

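The deposited values are probe set intensities on a linear scale (6.25 to 35765). Per the submitters' processing notes RMA was used; its version, and how the values returned to a linear scale, are not given in the sources used here. Log2 of each deposited intensity was taken, with no pseudocount. Of 31099 probe sets 57 were controls, and of the other 31042, 20826 had 1 gene symbol, 436 several and 9780 none in the platform annotation, which gave 14217 genes. Gene numbers of 20758 of these were found in RefSeq's gene table, and 0 symbols changed. The number of arrays limits the precision.

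A single limma fit (lmFit, then contrasts and eBayes; limma 3.58.1, R 4.3.3) held all genes and the 3 groups, with 2-sided p-values adjusted by Benjamini-Hochberg over the 14217 genes of a comparison and a threshold of 0.05. The script was tested on simulated data. Probe sets beside the one used were fitted over all 31042. Tables used pandas 2.3.3 in Python 3.11.15 and plots matplotlib 3.10.9. Promoters came from RefSeq (GRCr8).

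The members, roles and gene lists were chosen with earlier results of these data known. All members could be named, with Nkx6-1, the constitutive partners Psmb5 and Psmb7, and up to 4 genes of a list by smallest p in a comparison; Irf1, Nfkb1, Ifng, Ifnb1, Calr, Pdia3, Ins1, Ptprc, Cd4 and Mrc1 were named after their values were seen. Alternatives changed the probe set rule, the scaling, a filter on dim genes, the groups fitted, the prior, a replicate block and each array left out. The replicate numbers showed no pairing in whole-array deviations: of 15 same-numbered pairs across groups 3 correlated above 0.1 (range -0.39 to 0.25). Variation that arrays do not share can hide a pairing, so pairing is not excluded.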

Additional observations from a re-analysis of the deposited data

Results flagged for a closer look

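Tap2 had 10.25 on Adβgal replicate 5, while the other 5 Adβgal arrays lay between 9.41 and 9.68. The gap was 0.677 of the whole range of the group, above the limit for 6 arrays. Such a test picks out about 1 in 20 groups by chance. It was run on each of the 3 groups for each of the 32 genes and picked out 1. The call of Tap2 against Adβgal did not change when this array was left out.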

How the results depend on the processing

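Over the 32 genes, 3 comparisons and all alternatives, 2331 single-gene results kept their side of the threshold, 32 crossed into it, 16 fell out of it and 0 called changes reversed. Changes that did not pass turned sign 49 times, 7 of them for Adβgal against untreated without Adβgal replicates 4, 5 and 6. With single arrays left out, 16 to 19 members were called with AdNkx6.1 against Adβgal and 5 to 8 with Adβgal against untreated. With AdNkx6.1 against untreated they numbered 20 to 21. In the same order all genes called numbered 2783 to 3933, 509 to 1503 and 3558 to 5069. Among these calls 0 to 1 members were lower in each AdNkx6.1 comparison and 0 with Adβgal against untreated. Against Adβgal the lower one was RT1-DMb without AdNkx6.1 replicate 3. Against untreated RT1-Ba was lower without AdNkx6.1 replicate 3 (-0.57, limma adjusted p = 0.048) and RT1-CE16 without AdNkx6.1 replicate 5 (-0.43, limma adjusted p = 0.044). The count of all genes for Adβgal against untreated, 997, was the least stable: it was 1503 without Adβgal replicate 2, 647 without Adβgal replicate 6, and 620, 532, 526 and 509 without untreated replicates 1, 2, 4 and 5. It was 1752 with each array centred on its median, 521 in a fit of only these groups, 393 with the replicate block and 552 without Adβgal replicates 4, 5 and 6. Centring also moved the split of all called genes to 313 higher and 1439 lower (404 and 593 in the reported fit) for Adβgal against untreated, and to 1849 and 2900 (2404 and 1956) for AdNkx6.1 against untreated, with the median of all genes at -0.10 and -0.09; the member counts stayed 17, 6 and 20. The replicate block left 16, 3 and 20 members called: against untreated, Adβgal lost RT1-M3-1, Psmb8 and Tap1 (adjusted p = 0.056, 0.054 and 0.076), and RT1-S3 was lost between the viruses (0.058). The fit of 2 groups lost RT1-S3 between the viruses (0.068) and RT1-M3-1 for Adβgal against untreated (0.07). The cause of these shifts was not tested. Without Adβgal replicates 4, 5 and 6, chosen after seeing the data, the counts were 16, 6 and 21. Dim probe sets, near-identical RT1 copies and the wide Adβgal spread limit small changes.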

Other observations

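Some genes of antigen handling outside the members were called as well. Of all genes 16.6% were higher and 8.48% lower with AdNkx6.1 than with Adβgal, and 16.9% and 13.8% than untreated. A few calls in lists this short do not set them apart from those shares. Of 6 measured class I related genes outside RT1, Fcgrt, the receptor that recycles IgG and albumin, was higher with AdNkx6.1 than with Adβgal (0.46 ± 0.14, limma adjusted p = 0.02) and Cd1d1, which presents lipids, was lower (-0.66 ± 0.15, adjusted p = 0.0038). Of 8 cytosolic and other peptidases, 2 were higher with AdNkx6.1 than untreated: Thop1, which degrades peptides in the cytosol, by 1.37 ± 0.43 (2.58-fold, adjusted p = 0.023), and Ide, the insulin-degrading enzyme, by 0.21 ± 0.08 (adjusted p = 0.045).

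Against untreated islets AdNkx6.1 islets had 5 of 29 leukocyte markers lower (Tyrobp, Laptm5, Csf1r, Cd4 and Mrc1, by -0.54 to -0.79) and 1 higher, Lck (1.12 ± 0.18, adjusted p = 0.00025). Of all genes 13.8% were lower and 16.9% higher in this comparison, so the count of lower markers lay near that share. A second probe set of the class II gene RT1-Ba differed between arrays of 1 group by more than between groups: it had 7.39, 6.59, 4.62, 7.93 and 7.77 with AdNkx6.1, 3.92, 8.49, 7.58, 7.91, 6.11 and 8.37 with Adβgal and 8.05 to 8.77 untreated. The probe set used for RT1-Ba had 9.67 on AdNkx6.1 replicate 3 and 8.50 on Adβgal replicate 1, the arrays with the low values of 4.62 and 3.92.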
